A study of Mus musculus with 83 samples.

Results

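The interferon-stimulated genes described here are 39 genes that cells switch on when an interferon binds its receptor. They were chosen by symbol, as known targets of the pathway, and read from a table of RNA-seq counts with 37764 genes. All 39 were in the table and all 39 passed the filter on low counts, which kept 18325 genes. The counts came from the colon of 83 male C57BL/6J/Ukj mice, with 16 mice each aged 3, 9 and 15 months, 17 aged 24 months and 18 aged 28 months. The labels name no treatment and no genetic change for any group, and none says that mice of different ages shared a litter or cage. The label of each mouse also names 1 of 3 library preparations, and each preparation held 4 to 7 mice of every age. Each library is 1 mouse, so replicates are separate animals. Mice are called here by age and by the replicate number in their label.

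Interferons are signals that cells release after they sense viral or bacterial nucleic acid. Type I interferons (alpha and beta) and type III interferons (lambda) activate a complex with STAT2 and IRF9 that binds the interferon-stimulated response element of its target promoters. Type II interferon (gamma), made by T cells and natural killer cells, acts through another promoter element, the gamma-activated site. Many targets answer to both routes. The guanylate-binding proteins (GBP) and immunity-related GTPases (IRG), which attack membranes around intracellular microbes, are known for a strong response to gamma, while the IFIT and OAS families and Isg15 are classical targets of the alpha, beta and lambda route. In the gut, the epithelium responds mainly to lambda and immune cells of the wall respond to alpha and beta, and a low tonic level of these genes is kept up in healthy tissue.

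The promoters of 5 members are shown first because each holds the core of an element through which interferon is known to reach its targets. Gbp2, Igtp and Irgm1 are GTPase genes with higher levels in the oldest mice, and Ifit1 and Isg15 are antiviral genes that passed none of the tests between ages. Each sequence runs from 250 bases before to 50 bases after the gene start in RefSeq (build GRCm38.p6), on the strand of the gene. Capitals mark matches to GAAANNGAAA, the core of the interferon-stimulated response element, on either strand.
Gbp2, chr3:142620413-142620712, plus strand: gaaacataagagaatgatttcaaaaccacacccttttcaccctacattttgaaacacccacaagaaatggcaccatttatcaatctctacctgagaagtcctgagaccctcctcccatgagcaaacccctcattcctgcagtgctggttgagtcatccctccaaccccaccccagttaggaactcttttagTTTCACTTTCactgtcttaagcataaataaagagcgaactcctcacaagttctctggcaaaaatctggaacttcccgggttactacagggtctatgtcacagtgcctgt
Igtp, chr11:58199306-58199605, plus strand: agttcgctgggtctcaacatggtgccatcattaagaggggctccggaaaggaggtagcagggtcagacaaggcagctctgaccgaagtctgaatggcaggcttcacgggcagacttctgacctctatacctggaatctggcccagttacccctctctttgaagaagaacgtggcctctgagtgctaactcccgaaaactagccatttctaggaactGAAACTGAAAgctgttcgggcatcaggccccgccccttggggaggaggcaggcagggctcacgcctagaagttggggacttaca
Irgm1, chr11:48871371-48871670, minus strand: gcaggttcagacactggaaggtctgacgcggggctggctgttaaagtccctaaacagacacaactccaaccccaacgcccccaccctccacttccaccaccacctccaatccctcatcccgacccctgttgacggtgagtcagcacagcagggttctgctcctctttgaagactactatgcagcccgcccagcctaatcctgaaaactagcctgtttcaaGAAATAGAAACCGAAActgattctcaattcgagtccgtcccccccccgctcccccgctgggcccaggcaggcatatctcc
Ifit1, chr19:34640639-34640938, plus strand: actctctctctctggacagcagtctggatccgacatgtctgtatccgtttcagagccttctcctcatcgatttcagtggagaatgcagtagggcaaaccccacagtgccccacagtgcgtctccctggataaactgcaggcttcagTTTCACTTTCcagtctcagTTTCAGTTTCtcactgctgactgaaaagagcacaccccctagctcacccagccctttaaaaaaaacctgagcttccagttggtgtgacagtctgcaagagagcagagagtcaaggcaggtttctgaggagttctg
Isg15, chr4:156200769-156201068, minus strand: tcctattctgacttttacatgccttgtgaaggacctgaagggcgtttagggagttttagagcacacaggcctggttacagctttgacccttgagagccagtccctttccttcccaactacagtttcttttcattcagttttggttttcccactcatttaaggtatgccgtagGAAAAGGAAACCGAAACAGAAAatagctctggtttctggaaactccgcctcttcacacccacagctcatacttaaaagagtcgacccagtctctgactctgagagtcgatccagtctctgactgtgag

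A promoter window was found for 30 of the 39 members. The other 9 are Mx1, Zbp1, Dhx58, Oas2, Ifi27, Parp9, Parp14, Rtp4 and Usp18. GAAANNGAAA stood in the window of 18 of the 30 members (60.0%), beside 3.99% of the 27025 genes with a window and 3.92% of the 12720 of them that passed the filter on low counts. The match lay 59 bases before the start of Gbp2, 34 bases before that of Igtp, and 2 overlapping matches began 30 and 24 bases before that of Irgm1. Ifit1 held 2 matches, beginning 104 and 85 bases before its start, and Isg15 held 3 that overlapped. The gamma-activated site TTCNNNGAA, which reads the same on both strands, was found for 7 of the 30 members (23.3%), beside 9.55% of all genes and 8.40% of those that passed the filter. Igtp held 1 of them, Gbp7 held 2, and Gbp2, Irgm1, Ifit1 and Isg15 held none in these 300 bases. In the members' windows a match of one motif overlapped a match of the other 1 time. A match is a description of the sequence and not a measured binding site.

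Between 23026370 and 75838290 read pairs were counted per mouse, with a median of 35495123, and each member had at least 77 read pairs in each mouse. In all 649 pairs of mice of equal age the counts stood further apart than counting noise allows, by a factor of 10.9 or more. Colon markers such as Epcam, an epithelial adhesion protein, were abundant in every mouse, at 1049 CPM or more. CPM are counts scaled to a common library size with a correction for composition, and CPM of one gene are comparable between mice. Levels of different genes are compared only as TPM, which divides by exon length. In whole colon, fewer cells of a type and less RNA per cell cannot be told apart.

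Per unit of length, the transcription factor Irf7 was the most abundant member, with a mean of 349 TPM over the 83 mice. Isg15, the ubiquitin-like protein that is attached to other proteins during infection, followed with 249 TPM. Oas1a had a mean of 150.2 TPM, Ifit1 had 144 TPM, and Bst2, which tethers virus particles to the cell surface, had 138 TPM. The lowest means were those of Herc6, the ligase that attaches Isg15, with 7.67 TPM, Gbp7 with 12.6 TPM and Ifit3b with 13.1 TPM. Igtp stood at 80.2 TPM, Irgm1 at 61.9 TPM and Gbp2 at 44.7 TPM. The order follows exon lengths merged over transcripts, and neighbours in it overlapped widely between mice, as Ifit1 did from 59.05 to 249.9 TPM and Oas1a from 96.3 to 211 TPM.

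The members lie on 14 chromosomes, several in family clusters (build GRCm38). Gbp7, Gbp3 and Gbp2 lie in 1 cluster on the plus strand at chr3:142530342-142638008, and the 4 IFIT genes lie at chr19:34550694-34650009. Oas2, Oas3 and Oas1a share chr5:120730333-120907521, and Oasl2 and Oasl1 lie at chr5:114896936-114937915. Parp9 and Dtx3l overlap by 682 bases on opposite strands at chr16:35926511-35972605, and the counting used the strand of the read. Reads that matched more than 1 place were left out upstream, so the near-identical genes of the GBP, OAS and IFIT clusters, Ifit3 and Ifit3b above all, may be undercounted.

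The first question was whether the members differ with age at all. In a test of all 5 ages together, 11 of the 39 members (28.2%) differed, beside 54.9% of all tested genes (edgeR quasi-likelihood F-test, Benjamini-Hochberg adjusted p under 0.1). These were Mx1, Gbp2, Igtp, Gbp7, Ifi27, Irgm1, Xaf1, Herc6, Irf9, Trim30a and Gbp3. All 6 of the interferon-inducible GTPase genes were among them. Gbp3 was lost without 28-month mouse 1, 7 or 11, with no preparation term, with no filter on low counts and at an adjusted p under 0.05. Without these 3 mice together Gbp2, Igtp and Mx1 alone of the 6 passed. Trim30a was lost without 28-month mouse 11, with no preparation term, with no filter and at an adjusted p under 0.05. Irf9 was lost with no preparation term and at an adjusted p under 0.05. None of the 4 sensors (Ifih1, Ddx58, Dhx58, Zbp1), none of the 5 OAS genes, none of the 4 IFIT genes and none of the PARP9 and DTX3L group passed. Oasl1 lay just outside, at an adjusted p of 0.105. It passed in DESeq2, with DESeq2 size factors, with at least 10 counts in every mouse and with replicate number as a block. It also passed without 3-month mouse 7, without 28-month mouse 1 and without 3-month mouse 14 and 15-month mice 12 and 16. Parp9 passed with the block and without 3-month mouse 7. The share of members that differed was below that of the whole transcriptome. These shares count calls and do not compare sizes of change, because the members vary more between mice (median SD 0.34 against 0.20 over all tested genes).

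No member differed between 3 and 9 months, where 8.69% of all tested genes did, nor between 9 and 15 months, where 0.431% did. At an unadjusted p under 0.05 there were 0 and 2 members in these comparisons, and DESeq2 called 0 in both. Between 15 and 24 months Mx1 alone was lower (13.5% of all genes differed), with a log2 fold change of -0.39 (SE 0.13, adjusted p = 0.05). Between 24 and 28 months 6 members differed (15.4%, beside 11.7% of all genes). Gbp2, Igtp, Irgm1 and Gbp7 were higher at 28 months, as 5.66% of all genes were, and Mx1 and Ifi27 were lower, as 6.01% were. The call of Ifi27 in this step was lost in 14 of 15 alternatives. The median log2 fold change in this last step was 0.08 over the 39 members and -0.01 over all genes. The count of members in this step changed when 28-month mice 1, 7 and 11 were left out, mice chosen after their values were seen. These are the 3 highest mice for Gbp2, so its rise must shrink without them. The count was 2 members without mouse 1, 3 without mouse 7, 3 without mouse 11 and 0 without all of these (edgeR, 2 at an unadjusted p under 0.05). The median log2 fold change over the 39 members was 0.09 without all 3. With all mice DESeq2 called 5.

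Between 3 and 28 months, the ends of the range, 11 members differed (28.2%, beside 49.4% of all genes). Within all 3 library preparations 26 members had a higher mean at 28 months and 2 a lower one. Of the 11, 9 rose, beside 23.5% of all genes, and 2 fell, beside 25.9%. The median log2 fold change was 0.13 over the 39 members and -0.01 over all genes, and 29 of the 39 values were above 0. Without 28-month mice 1, 7 and 11, 8 members differed. The same mice entered several of the 10 comparisons of ages, which therefore share their values. No member differed between 3 and 15 months (7.75% of all genes) or between 3 and 24 months (34.5%), with 1 and 0 at an unadjusted p under 0.05 and 0 by DESeq2 in both. Leaving out 3-month mouse 7 gave 2 members between 3 and 24 months, and the replicate block and the fit of only these ages each gave 1 between 3 and 15 months. Trim30a alone rose between 9 and 24 months (15.5%), a call lost with no filter on low counts and with no preparation term. Between 9 and 28 months 15 members rose and 2 fell, of 40.0% of all genes that differed, 20.0% that rose and 20.0% that fell. This pair alone brought in Ifit2 (log2 fold change 0.41), Ifi44 (0.37), Oas3 (0.28), Oasl2 (0.27) and Stat2 (0.23). Between 15 and 28 months 10 rose and 2 fell, of 42.4% that differed, 20.2% that rose and 22.2% that fell. The median level of the mice was lowest at 9 months for 30 of the 39 members and highest at 28 months for 27. Pairs of members had a median correlation of 0.71 across mice (741 pairs). The members counted here, and those counted within the preparations, are therefore not independent results. These counts were not made over all genes.

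**Figure D1:**
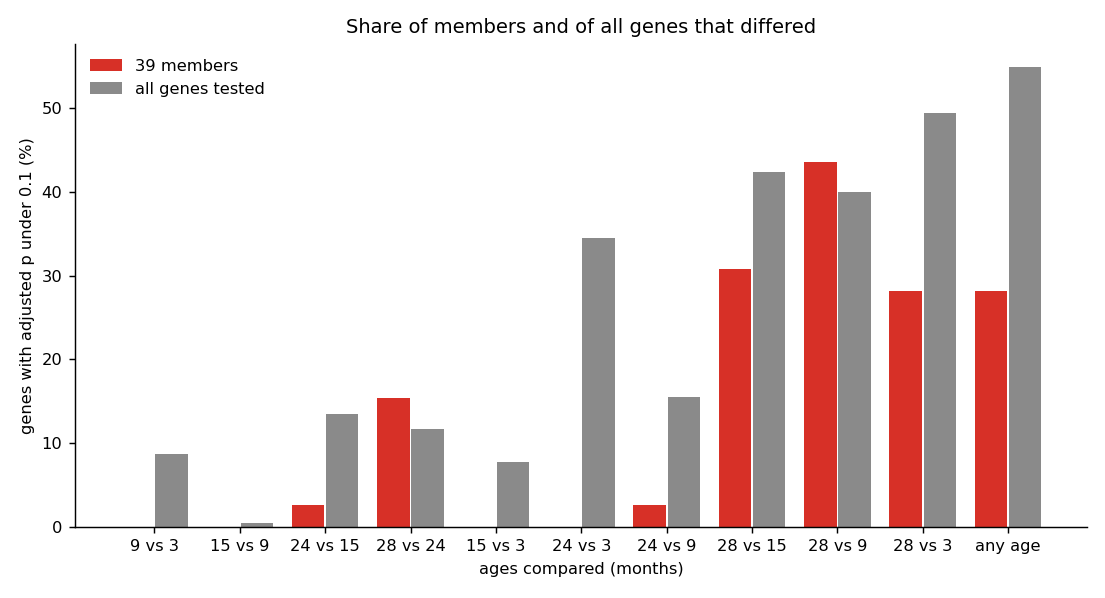
Share (%) of the 39 members (red bars) and of all 18325 tested genes (grey bars) with an adjusted p under 0.1, for each pair of ages in months and for the test of all ages together. Red bars are absent where no member was called, and members exceeded the share of all genes in 2 of the 11 comparisons, 28 against 24 months and 28 against 9 months.

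Gbp2, a guanylate-binding protein that coats vacuoles holding bacteria or parasites, had, with Igtp, the largest differences of the members between 3 and 28 months. Its lowest, median and highest levels were 19.4, 31.6 and 49.3 CPM at 3 months, 19.9, 30.8 and 71.4 at 9, 18.5, 27.4 and 43.3 at 15, 19.9, 31.5 and 59.1 at 24 and 21.95, 41.6 and 117 at 28 months. The age groups overlapped, and 7 of the 18 mice at 28 months lay above the highest 3-month mouse, while 6 lay below the 3-month median. The log2 fold change from 3 to 28 months was 0.64 (SE 0.17, adjusted p = 0.0014), and that from 24 to 28 months was 0.60 (SE 0.16, adjusted p = 0.015). Within the 3 library preparations the means differed by 0.79, 0.18 and 0.45 between 3 and 28 months. The highest 3 mice, 28-month mice 1, 7 and 11, stood at 117, 116 and 103 CPM. Without these mice the difference from 3 months was 0.29 (adjusted p = 0.099), and that from 24 months was 0.25 (adjusted p = 0.34).

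Igtp, also called Irgm3, is an immunity-related GTPase that guards the membranes of the cell itself. Across mice the lowest, median and highest levels were 24.9, 47.6 and 80.7 CPM at 3 months, 26.8, 45.1 and 77.4 at 9, 23.9, 47.9 and 67.2 at 15, 34.4, 51.6 and 85.01 at 24 and 38.9, 63.2 and 144 at 28 months. Groups overlapped here too, with 4 of 18 mice at 28 months above all 3-month mice and 14 above the 3-month median. Igtp rose by 0.61 (SE 0.14, adjusted p = 2.5e-04) on the log2 scale from 3 to 28 months and by 0.42 (SE 0.14, adjusted p = 0.041) from 24 to 28 months. The mean was higher at 28 months in each preparation, by 0.60, 0.41 and 0.66. Without 28-month mice 1, 7 and 11 the values were 0.38 (adjusted p = 0.013) and 0.19 (adjusted p = 0.42).

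Irgm1, a regulator of the same family that also acts in autophagy, stood at 83.9, 115 and 182 CPM at 3 months, 76.5, 110.1 and 164 at 9, 73.2, 111 and 151 at 15, 83.2, 116 and 138 at 24 and 83.5, 129 and 221 at 28 months for the lowest, median and highest mouse. The highest mouse at 28 months was mouse 7, and the ranges of all 5 ages overlapped. The rise was 0.18 (SE 0.09, adjusted p = 0.094) against 3 months and 0.25 (SE 0.09, adjusted p = 0.069) against 24 months. The first of these stood just inside the threshold, and without 28-month mouse 7 it was 0.16 (adjusted p = 0.15) and without mouse 11 0.16 (adjusted p = 0.16). Without 28-month mice 1, 7 and 11 together it was 0.09 (adjusted p = 0.42). The rise from 24 months was likewise lost without mouse 7, at 0.22 (adjusted p = 0.13), without mouse 11, at 0.23 (adjusted p = 0.11), and with no filter on low counts, at 0.25 (adjusted p = 0.12).

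Gbp7 and Gbp3 are guanylate-binding proteins of the same cluster as Gbp2. For Gbp7 the lowest, median and highest levels were 15.1, 23.8 and 29.4 CPM at 3 months, 13.4, 19.6 and 39.7 at 9, 13.01, 20.01 and 28.9 at 15, 12.4, 21.8 and 31.5 at 24 and 16.97, 25.4 and 45.9 at 28 months. Levels overlapped, with 5 of the 18 oldest mice above all 3-month mice. Gbp7 differed by 0.31 (SE 0.12, adjusted p = 0.026) against 3 months and 0.31 (SE 0.12, adjusted p = 0.088) against 24 months. Without 28-month mice 1, 7 and 11 the first value was 0.14 (adjusted p = 0.32). Gbp3 ranged over 13.1, 21.3 and 42.4 CPM at 3 months, 13.6, 19.99 and 35.9 at 9, 13.01, 21.1 and 29.7 at 15, 13.2, 19.9 and 29.7 at 24 and 12.4, 26.2 and 41.04 at 28 months, again overlapping between all ages. It passed the test of all ages together and rose from 9 and from 15 months to 28 months, and its difference between 3 and 28 months was 0.17 (SE 0.13, adjusted p = 0.3).

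Mx1 went the other way. This GTPase blocks influenza viruses in wild mice, and C57BL/6 mice carry an allele known to make no functional protein. Its lowest, median and highest levels were 14.8, 25.2 and 30.9 CPM at 3 months, 15.6, 25.9 and 43.6 at 9, 19.1, 29.4 and 43.1 at 15, 12.96, 22.8 and 37.2 at 24 and 10.9, 18.9 and 30.4 at 28 months. The 15-month mice were high, and 17 of the 18 mice at 28 months lay below the medians of both the 3-month and the 15-month mice, though the groups overlapped. Mx1 fell by 0.42 (SE 0.13, adjusted p = 0.0058) on the log2 scale from 3 to 28 months and by 0.37 (SE 0.13, adjusted p = 0.063) from 24 to 28 months. The mean was lower at 28 than at 3 months in each preparation, with log2 differences of -0.29, -0.46 and -0.57. The fall from 3 months was as large without 28-month mice 1, 7 and 11, at -0.42 (adjusted p = 0.011), and that from 24 months was -0.36 (adjusted p = 0.12).

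**Figure D2:**
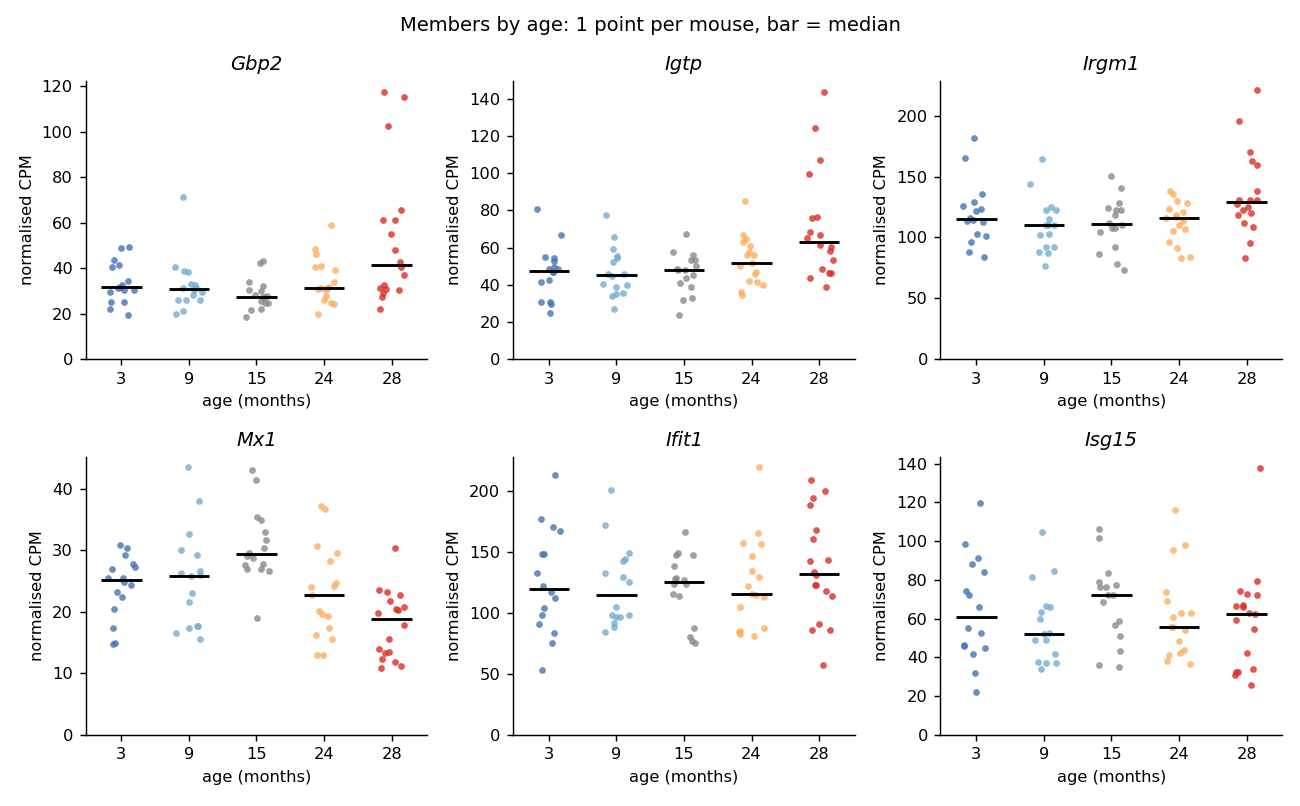
Normalised CPM of 6 members in each of the 83 mice (points, coloured by age) with the median of each age (bars), against age in months. Gbp2, Igtp and Irgm1 reach their highest mice at 28 months, Mx1 has its lowest median there, and the ages overlap for Ifit1 and Isg15.

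Among the other effectors, Xaf1, which binds an inhibitor of cell death, rose. The lowest, median and highest Xaf1 levels were 15.9, 30.6 and 51.3 CPM at 3 months, 24.4, 29.2 and 44.8 at 9, 20.7, 32.6 and 42.3 at 15, 25.2, 36.4 and 45.2 at 24 and 23.9, 42.6 and 50.3 at 28 months. No 28-month mouse exceeded the highest 3-month mouse, and 14 of 18 lay above the 3-month median. The log2 fold change was 0.33 (SE 0.11, adjusted p = 0.0087), with 0.29, 0.43 and 0.38 in the 3 preparations. Rtp4, a chaperone of receptors that is induced by interferon, differed by 0.25 (SE 0.11, adjusted p = 0.049). Trim30a, a ubiquitin ligase that restrains inflammatory signalling, ranged over 27.9, 45.2 and 80.4 CPM at 3 months, 25.99, 43.7 and 70.9 at 9, 30.9, 56.9 and 77.8 at 15, 37.9, 54.3 and 76.6 at 24 and 28.6, 59.8 and 79.5 at 28 months. These groups overlapped, and Trim30a rose from 9 to 24 months and from 9 to 28 months, while its value between 3 and 28 months was 0.17 (SE 0.12, adjusted p = 0.26).

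Ifi27, a small mitochondrial protein, had the smallest SD of the 39 members around the means of age and preparation. Its lowest, median and highest levels were 44.03, 59.1 and 74.7 CPM at 3 months, 48.8, 60.97 and 80.6 at 9, 50.8, 58.5 and 62.6 at 15, 48.1, 58.1 and 72.5 at 24 and 41.8, 51.6 and 64.6 at 28 months. Mice at 28 months were the lowest group, with overlap, and 14 of the 18 lay below the 3-month median. Ifi27 fell by 0.14 (SE 0.05, adjusted p = 0.028) from 3 to 28 months. Within the preparations the log2 differences were -0.31, -0.03 and -0.04, so the difference lay mostly in 1 preparation. Ifi27 no longer passed the threshold without 3-month mouse 7, at -0.11, without 28-month mice 1, 7 and 11, at -0.10, or with replicate number as a block.

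Of the remaining effectors none differed between 3 and 28 months. Rsad2 (viperin), which makes a false nucleotide, stood at 0.19, and Cmpk2, the kinase beside it on chromosome 12, at 0.09 on the log2 scale. Eif2ak2 (PKR), which halts translation, stood at 0.07, Samd9l, which restrains translation, at -0.03, Ifi35 at -0.03, Ifi44 at 0.05 and Bst2 at -0.13. The sensors of viral RNA Ifih1 (MDA5), Ddx58 (RIG-I) and Dhx58 (LGP2) stood at 0.05, -0.05 and 0.07, and Zbp1, a sensor of Z-form nucleic acid that starts cell death, at 0.06. The 95% interval of Ifih1, -0.07 to 0.18, was the narrowest of these sensors.

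Irf9 and Stat2 are parts of the complex that binds the interferon-stimulated response element. Irf9 ranged over 54.6, 74.1 and 92.7 CPM at 3 months, 61.9, 76.9 and 93.6 at 9, 52.8, 76.7 and 85.6 at 15, 60.4, 77.7 and 94.01 at 24 and 63.97, 83.9 and 105 at 28 months for the lowest, median and highest mouse, with overlap of all ages. It rose by 0.18 (SE 0.06, adjusted p = 0.01) from 3 to 28 months, with 0.22, 0.12 and 0.22 in the 3 preparations. Stat2 and Irf7, which drives the interferon genes themselves, did not pass, with values of 0.15 (SE 0.08, adjusted p = 0.13) and 0.12 (SE 0.09, adjusted p = 0.31). Stat2 rose from 9 to 28 months, by 0.23 (SE 0.08, adjusted p = 0.019).

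The OAS enzymes make the signal that activates RNase L. Oasl1, a family member without that activity, had its lowest, median and highest levels at 49.2, 84.7 and 124 CPM at 3 months, 58.05, 80.3 and 118 at 9, 37.3, 93.4 and 132 at 15, 70.7, 90.2 and 129.6 at 24 and 65.4, 97.8 and 153 at 28 months. The groups overlapped, and the log2 fold change from 3 to 28 months was 0.22 (SE 0.10, adjusted p = 0.062). Oas2 had the largest ratio of highest to lowest mouse of any member, 7.96. Its levels were 30.8, 71.2 and 119.6 CPM at 3 months, 32.7, 59.2 and 96.6 at 9, 31.6, 82.2 and 111 at 15, 32.9, 72.3 and 113 at 24 and 15.02, 65.5 and 113 at 28 months, so both the lowest mouse, 28-month mouse 1, and a mouse close to the highest were among the oldest. Its log2 fold change was -0.17 (SE 0.16, adjusted p = 0.41). Oas1a, Oas3 and Oasl2 stood at -0.04, 0.15 and 0.13.

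The IFIT proteins act together on foreign RNA, and none of the 4 differed between any adjacent ages or between 3 and 28 months. Ifit3 had levels of 9.78, 28.2 and 59.8 CPM at 3 months, 16.6, 24.8 and 47.7 at 9, 15.1, 26.1 and 37.3 at 15, 14.4, 27.8 and 53.2 at 24 and 11.9, 32.2 and 49.8 at 28 months for the lowest, median and highest mouse. Ifit3b, its near copy, had 2.71, 9.28 and 17.4 CPM at 3 months, 5.69, 7.96 and 16.2 at 9, 5.39, 8.32 and 14.5 at 15, 4.27, 8.33 and 14.8 at 24 and 2.88, 9.00 and 14.4 at 28 months. The ranges of all ages overlapped for both, and their log2 fold changes from 3 to 28 months were 0.07 (SE 0.17, adjusted p = 0.75) and -0.07 (SE 0.16, adjusted p = 0.74). Those of Ifit1 and Ifit2 were 0.14 and 0.20. The 95% interval for Ifit1 ran from -0.13 to 0.40.

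Isg15 itself varied 6.19 times between its lowest and highest mouse. Its levels were 22.3, 60.7 and 119 CPM at 3 months, 34.2, 52.3 and 105 at 9, 35.2, 72.4 and 106 at 15, 36.7, 55.8 and 116 at 24 and 25.8, 62.5 and 138 at 28 months for the lowest, median and highest mouse, and all ages overlapped. The log2 fold change from 3 to 28 months was -0.10 (SE 0.16, adjusted p = 0.67) with a 95% interval of -0.42 to 0.23. Herc6 ranged over 12.98, 20.8 and 38.1 CPM at 3 months, 11.8, 19.3 and 40.3 at 9, 14.96, 23.03 and 36.5 at 15, 17.4, 21.8 and 31.2 at 24 and 16.4, 26.6 and 41.9 at 28 months and rose by 0.27 (SE 0.12, adjusted p = 0.052). Without its highest mouse, 28-month mouse 11, Herc6 no longer passed. Usp18, which removes Isg15 and blocks the type I receptor, stood at 0.25 (SE 0.15, adjusted p = 0.18). Parp9 and its partner Dtx3l, a ubiquitin ligase pair, stood at 0.14 and 0.09, and Parp14, which transfers ADP-ribose, at 0.13. Parp9 rose from 9 and from 15 months to 28 months.

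**Figure D3:**
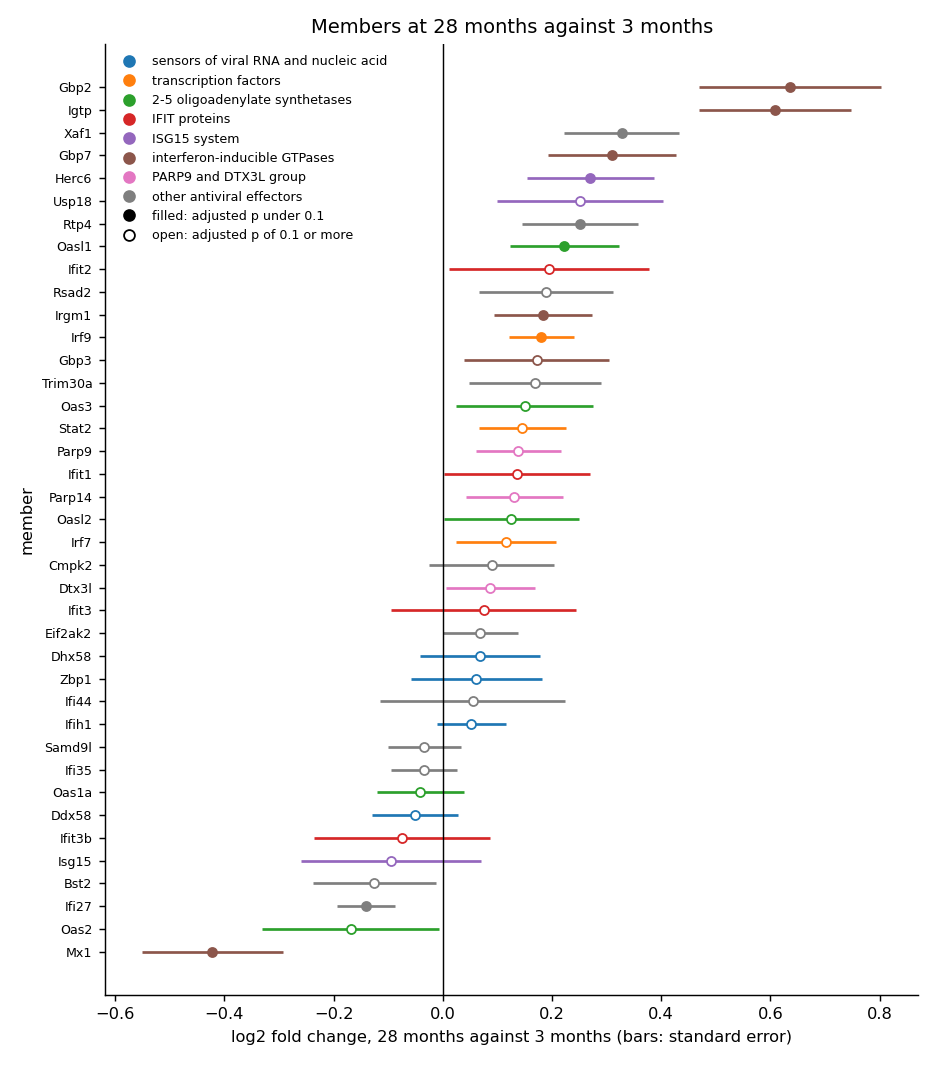
Log2 fold change at 28 months against 3 months of all 39 members, with standard errors as bars and colours for the role of the gene. Filled points had an adjusted p under 0.1, and GTPase genes stand at both ends, Gbp2 at 0.64 and Mx1 at -0.42.

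The spread between mice of one age was larger than usual for these genes. The SD of log2 CPM around the means of age and preparation had a median of 0.34 over the 39 members, from 0.16 for Ifi27 to 0.56 for Ifit2, and of 0.20 over all tested genes. In this measure 35 members stood above the median of all genes, and all 39 stood above the median (0.14) of the 10421 genes within the same range of mean level. The IFIT genes had the largest median SD of the roles, 0.50, followed by the Isg15 system with 0.46, and the transcription factors the smallest, 0.24. The SD was largest at 3 months for 21 of the 39 members and at 28 months for 8. The lowest mouse of 15 members was a 15-month mouse.

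Mice that were high for 1 member were often high for many. A mouse was to be named where it was among the 3 highest for at least 20 of the 39 members, and 3-month mouse 7 alone met this. It was among the 3 highest of 83 for 25 members, the single highest for 15, among the 10 highest for 36 and above the median for all 39. Its Oas2 stood at 119.6 CPM, 1.81 times the median mouse, and its Ifit3b at 17.4 CPM, 2.06 times. Its Gbp2 and Mx1 were less extreme, ranking 11 and 26. Markers of T cells and natural killer cells, summed over 10 genes, ranked 4 of 83 in this mouse, macrophage markers 33 and B cell markers 73. The 10 genes were not all high, as Cd3d, Cd3g, Gzma and Gzmb ranked 3 in this mouse but Cd4 ranked 49 and Cd8b1 75. All 5 smooth muscle markers were low in it, ranking 76 to 78, with Des at 276 CPM or 0.395 times the median mouse. The part of these cells in its levels was not tested. Without it, 14 members differed between 3 and 28 months in place of 11.

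The mice named next were chosen after their values were seen. The lowest mice were 3-month mouse 14, among the 3 lowest for 18 members, 15-month mouse 16 for 16, 28-month mouse 1 for 15 and 15-month mouse 12 for 12. In 3-month mouse 14, Isg15 stood at 22.3 CPM and Ifit1 at 53.1 CPM, the lowest of all mice, while its B cell and cycling cell markers were the highest of all 83. Its Ly6g, a neutrophil surface protein, was also the highest, at 18.6 CPM, with the neutrophil gene S100a8 at 0.457 CPM. In 15-month mouse 16 the epithelial and endothelial markers were the lowest of all 83. High mice besides 3-month mouse 7 were 28-month mouse 10, among the 3 highest for 15 members, 28-month mouse 11 for 14 and 24-month mouse 8 for 11. Each age held mice above and below the middle, with the median deviation of a mouse over the members running from -0.69 to 0.60 at 3 months and from -0.46 to 0.50 at 28 months on the log2 scale.

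**Figure D4:**
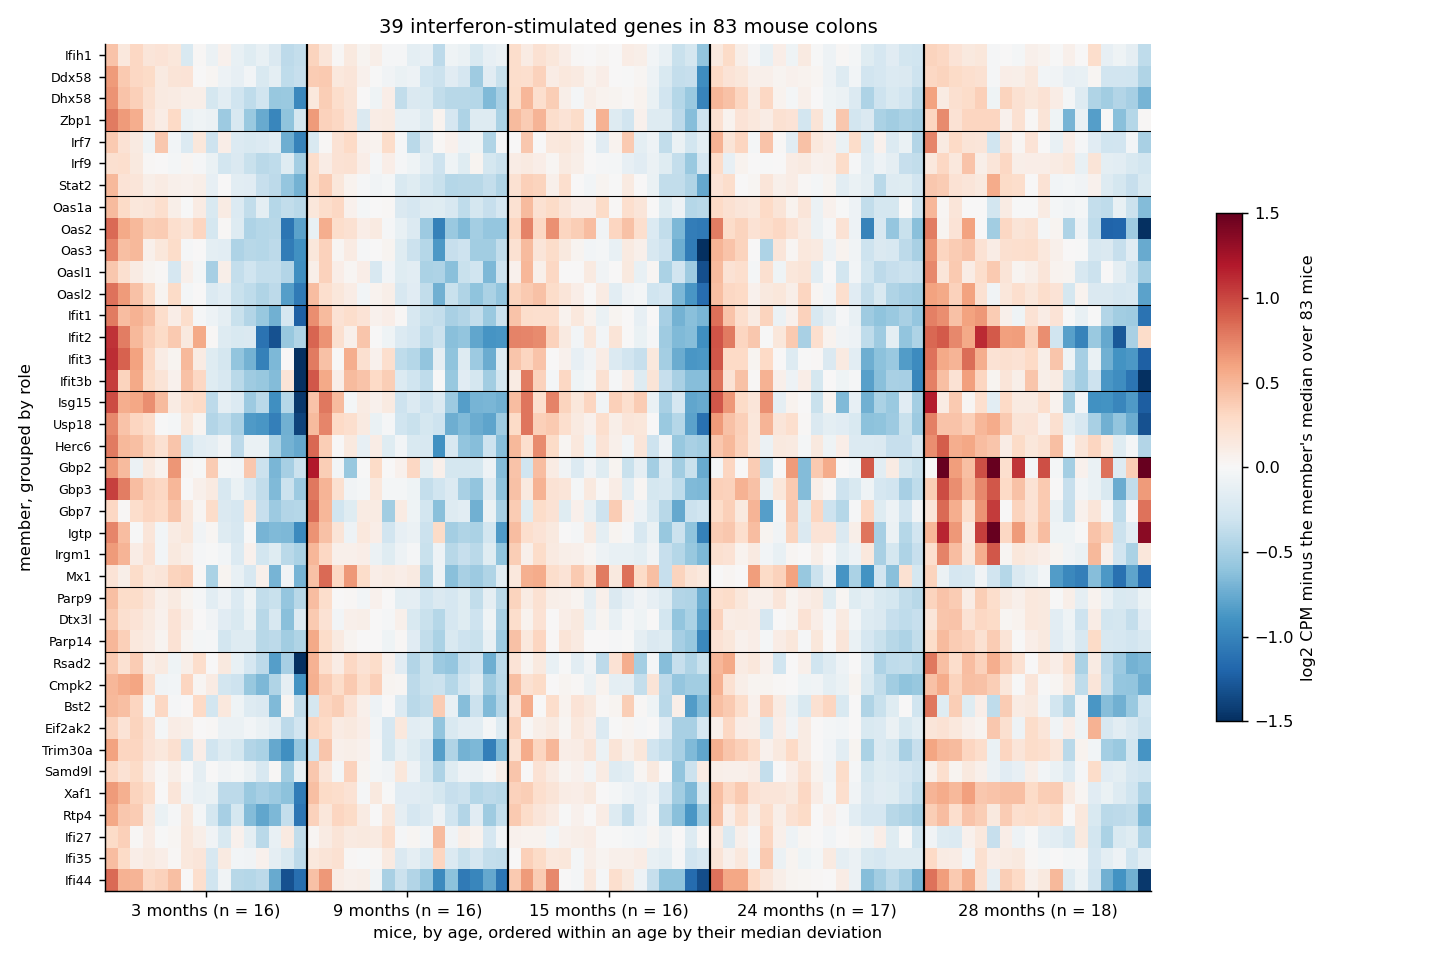
Log2 CPM of the 39 members (rows, grouped by role) in 83 mice (columns, by age and ordered within an age by median deviation), each minus the median of the member over all mice. Red is higher and blue lower, and columns that are mostly red or mostly blue occur at every age.

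In 28-month mouse 1 the members split. It had the highest Gbp2 of all mice, 117 CPM or 3.75 times the median mouse, and the second highest Igtp, 124 CPM. The same mouse had the lowest Oas2 (15.02 CPM), Mx1 (10.9 CPM) and Ifi44 (11.2 CPM), and ranked 82 for Ifit1 and 82 for Isg15. It also had the highest count of Ifng, the gamma interferon, with 59 read pairs (1.02 CPM), and the highest summed markers of T cells and natural killer cells, with Cd8a at 27.99 CPM. Cxcl9 and Cxcl10, chemokines induced by gamma, were also at their highest there, at 45.95 and 14.4 CPM. The part of gamma interferon or of these cells in its levels was not tested. In 28-month mouse 7, which had the highest Igtp, Irgm1 and Gbp7, Ifng stood at 0.294 CPM (rank 9). Its Cxcl9 ranked 7, its Cxcl10 ranked 8 and its T cell and natural killer cell markers ranked 14. In 28-month mouse 11 these markers ranked 3, with the highest Gzmb, a killer cell protease, of all mice (20.6 CPM). Its Ifng ranked 14, its Cxcl9 4 and its Cxcl10 2. B cell markers ranked 83 of 83 in mouse 1, 82 in mouse 7 and 27 in mouse 11, and plasma cell markers 81, 83 and 69. Smooth muscle markers ranked 74, 36 and 72 in the same order, and endothelial markers 81 in mouse 7. The part of gamma interferon or of these cells in the levels of mice 7 and 11 was not tested either.

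**Figure D5:**
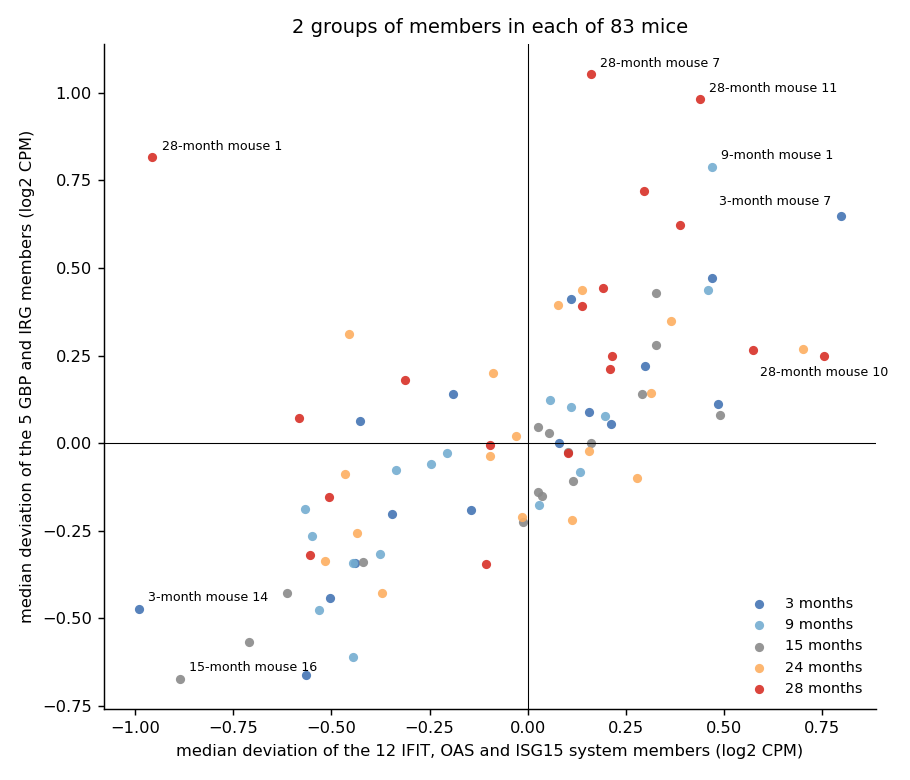
Median log2 deviation of the 5 GBP and IRG members (vertical axis) against that of the 12 IFIT, OAS and Isg15 system members (horizontal axis), each from the median mouse, with 1 point per mouse coloured by age. Most mice lie along a rising band, 28-month mouse 1 stands apart at -0.96 and 0.82, and 28-month mouse 7 has the highest vertical value, 1.05.

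The interferons themselves were barely counted. Of 15 ligand genes 8 were in the table used here and none passed the filter on low counts. Ifnb1 had a read pair in 5 of 83 mice and never more than 1. Ifnl2 and Ifnl3, the lambda genes, had any in 13 and 14 mice, with at most 2 and 6. Ifng had at least 1 in 80 mice, and its highest level at each age was 0.316 CPM at 3 months, 0.400 CPM at 9, 0.271 CPM at 15, 0.328 CPM at 24 and 1.02 CPM at 28 months. The mouse highest in this also had the highest Igtp of its age at 3 months (mouse 7), both the highest Gbp2 and Igtp at 9 months (mouse 1), and the highest Gbp2 at 28 months (mouse 1). At 24 months (mouse 4) it had neither, and at 15 months (mouse 16) it had the lowest Gbp2 and Igtp of all 83 mice. Read pairs of Ifng summed to 526 over all 83 mice, so its level rests on few counts in each.

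All 6 receptor genes passed the filter, and 4 differed between 3 and 28 months, 2 in each direction, where 49.4% of all genes differed. Ifnar1, a chain of the type I receptor, fell by 0.10 (SE 0.03, adjusted p = 0.0071), and Ifnlr1, the lambda receptor, which differed in the test of all ages, stood at 0.02 (SE 0.05, adjusted p = 0.83). The median level of Ifnlr1 was lowest at 9 months. Its levels were 20.2, 24.1 and 26.8 CPM at 3 months, 17.5, 20.4 and 26.2 at 9, 16.98, 24.1 and 25.8 at 15, 20.5, 24.6 and 26.7 at 24 and 19.7, 24.4 and 31.3 at 28 months for the lowest, median and highest mouse. The phosphatases Ptpn2 and Ptpn6, which switch the pathway off, stood at -0.07 and 0.02 and passed the test of all ages.

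Of 16 adaptors and kinases that lead from sensing to interferon genes, 10 differed between 3 and 28 months (62.5%, beside 49.4% of all genes), 3 higher and 7 lower, with a median log2 fold change of -0.03. Zcchc3, a cofactor of DNA and RNA sensing, fell by 0.59 (SE 0.09, adjusted p = 3.6e-07). Its lowest, median and highest levels were 2.12, 3.62 and 5.40 CPM at 3 months, 1.52, 2.40 and 2.85 at 9, 1.59, 2.26 and 2.96 at 15, 1.62, 2.49 and 3.02 at 24 and 1.99, 2.39 and 3.08 at 28 months, and the 3-month mice were the highest group, with overlap. Tbk1, the kinase that activates Irf3, rose by 0.19 (SE 0.03, adjusted p = 2.6e-06). Among the 6 other IRF factors 3 differed, with Irf4, a factor of plasma cells and lymphocytes, at 0.47 (SE 0.17, adjusted p = 0.024) and Irf5, a factor of macrophages, at 0.18 (SE 0.09, adjusted p = 0.091).

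Of 97 tested genes of the wider pathway, 51 differed between 3 and 28 months (52.6%, beside 49.4% of all genes), 35 higher and 16 lower, where 23.5% of all genes were higher and 25.9% lower. Between 24 and 28 months 13 differed, all higher (13.4%, beside 5.66% of all genes that were higher). Of 59 other interferon-stimulated genes, 33 differed between 3 and 28 months (55.9%), 27 higher and 6 lower, with a median log2 fold change of 0.17. Ly6e, a membrane protein that blocks virus entry, was lowest in the 3-month mice, with levels of 339.6, 459.5 and 577 CPM at 3 months, 509.9, 621 and 821 at 9, 444, 731 and 789 at 15, 611, 733 and 881 at 24 and 529, 708 and 884 at 28 months for the lowest, median and highest mouse. The 3-month mice overlapped with those of 9, 15 and 28 months in part and with no 24-month mouse, and Ly6e rose by 0.65 (SE 0.06, adjusted p = 2.3e-14) from 3 to 28 months. Slfn2, a schlafen gene of immune cells, rose by 1.12 (SE 0.16, adjusted p = 1.1e-08), with levels of 9.39, 17.7 and 23.7 CPM at 3 months, 10.01, 16.04 and 25.8 at 9, 11.2, 20.5 and 40.6 at 15, 19.1, 29.02 and 57.8 at 24 and 16.6, 36.2 and 61.7 at 28 months. The list also holds 10 more GBP and IRG genes, a grouping by name that was made after the values were seen. All 10, in edgeR, rose between 3 and 28 months, with a median of 0.62. Between 3 and 24 months 6 rose, with a median of 0.32, and between 24 and 28 months 6 rose, with a median of 0.30. Without 28-month mice 1, 7 and 11 these counts were 10 (median 0.46), 7 (median 0.32) and 0 (median 0.13, edgeR). Iigp1, a GTPase that breaks the vacuoles of parasites, rose most, by 1.56 (SE 0.26, adjusted p = 1.4e-06) from 3 to 28 months, with 1.04 (adjusted p = 2.0e-04) without these 3 mice, and its highest mouse was 28-month mouse 7 with 302 CPM, where the median of the 28-month mice was 54.6 CPM. Tgtp1 and Tgtp2 are near copies, and their values of 0.99 and 0.92 are uncertain for that reason.

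Some markers of other cell types moved with age as well. Between 3 and 28 months 23.5% of all tested genes were higher and 25.9% lower, and the marker counts are to be read against these shares. In this comparison 7 of 8 macrophage markers rose, with summed levels of 168 to 261 CPM at 3 months, 203 to 341 CPM at 24 months and 163 to 386 CPM at 28 months, and 4 of 10 T cell and natural killer cell markers rose, with 32.8 to 75.2 CPM at 3 months, 34.6 to 71.8 CPM at 24 months and 41.3 to 119.9 CPM at 28 months. Of 7 B cell markers 6 fell, with 7.83 to 105 CPM at 3 months, 10.2 to 73.2 CPM at 24 months and 6.83 to 31.3 CPM at 28 months, and 5 of 10 epithelial markers fell. Of 4 endothelial markers 3 rose, of 4 cycling cell markers 3 fell, of 4 tested neutrophil markers 3 rose and 1 fell, and of 4 fat markers 1 rose. None of 5 smooth muscle markers and none of 4 plasma cell markers differed. Between 24 and 28 months, where Gbp2, Igtp, Irgm1 and Gbp7 rose, none of the 8 macrophage markers and none of the 10 T cell and natural killer cell markers differed. All 7 B cell markers, 2 of 4 plasma cell markers and 2 of 4 cycling cell markers fell there, as 6.01% of all genes did, beside the lower Mx1 and Ifi27. Siglech, the defining marker of plasmacytoid dendritic cells, the main source of interferon alpha, had at most 1.03 CPM in any mouse, and 2 of 7 markers of these cells rose and 1 fell from 3 to 28 months. One of the 7, Klk1, had a median of 1249 CPM and made up nearly all of their sum, so that the sum is not given. No macrophage, T cell or natural killer cell marker was at 0 in any mouse, and of the B cell markers Fcer2a was at 0 in 6. The part of these cells in the members' differences was not tested.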

How the data were processed

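Colon RNA of 83 mice was sequenced as poly(A)-selected, strand-specific paired-end libraries. The deposited values are raw counts of read pairs per gene. According to the submitters' notes and the study's methods, the authors trimmed reads using cutadapt 2.8 and filtered them in PrinSeq Lite. They mapped the rest on GRCm38 by HISAT2 2.1.0, handled alignments with SAMtools 1.9, and counted uniquely mapped, properly paired, strand-matched pairs with featureCounts (Subread 2.0.1).

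Counts were analysed in R 4.3.3 with edgeR 4.0.16: filterByExpr by age, TMM scaling, and a quasi-likelihood fit with age and library preparation as terms over all mice. Benjamini-Hochberg adjusted p under 0.1 was called. CPM are TMM-scaled, log2 CPM used a prior count of 2, and TPM used merged exon lengths of GENCODE M21, which 37652 of the 37764 genes have. Intervals are 1.96 standard errors.

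The members and gene lists were chosen with earlier results of these data known. Levels are given for the 12 members with the smallest p over all ages and the 5 with the widest range, and of each related list the 2 genes with the smallest p are named. The result of 1 gene of the wider pathway is not reported here. On simulated counts of 18325 genes for 28 against 3 months, 93 of 100 genes changed by 0.5 (log2) and 100 of 100 changed by 1 were called, and 25 of 218 calls were unchanged genes. The changed genes were drawn at random, and no preparation effect was simulated. The members vary more between mice (median SD 0.34, against 0.20 over all tested genes). These shares therefore do not say how often a change of a member would be called. The alternatives were DESeq2 1.42.0, its size factors, other filters, no preparation term, replicate number as a block, robust dispersion, only the ages compared, another threshold and, chosen after seeing the data, leaving out single mice, 28-month mice 1, 7 and 11 together, or the low 3-month mouse 14 with 15-month mice 12 and 16.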

Additional observations from a re-analysis of the deposited data

How the results depend on the processing

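Alternatives were run for 18 called differences of single members, those between 3 and 28, 24 and 28, and 15 and 24 months, and none changed sign. Between 15 and 24 months 2 members in place of 1 differed when only the mice of these ages were fitted. Between 24 and 28 months the 6 members became 2 with no filter on low counts and 2 at an adjusted p under 0.05. There, leaving out single mice (3-month mouse 7, or 28-month mouse 1, 7 or 11, chosen after seeing the data) gave 2 to 5 members, and leaving out 28-month mice 1, 7 and 11 together gave 0. The cause was not tested. Between 3 and 28 months the counts ran from 8 to 14 over all alternatives, and over all ages from 8 to 15. The replicate numbers did not pair the mice: deviations of same-numbered mice had a median correlation of 0.01, and 27 of 161 pairs were above 0.1. With the number as a replicate block, 13 members differed between 3 and 28 months, 4 between 24 and 28 months and 15 over all ages, and of the related genes 52 differed. The test of all ages could not be run with only 2 ages.

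Of the values of these differences under the alternatives, 219 kept their call and 51 lost it. The fall of Ifi27 from 24 to 28 months was lost in 14 of 15 alternatives, the rise of Gbp7 in that step in 9 of 15 and the rise of Irgm1 from 3 months in 8 of 15, while Gbp2, Igtp, Mx1, Xaf1, Irf9 and Rtp4 passed from 3 to 28 months in all 15. The median SD between mice was 0.34 under each scaling. Each member had at least 77 read pairs in each mouse, while the interferon genes and some markers had counts of 0 in several mice.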
